A study of Mus musculus with 66 samples.

Results

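The comparison described here is 1 day of mouse cerebellar development, embryonic day 13 (E13) against embryonic day 12 (E12), in C57BL/6J, an inbred strain. It rests on 6 arrays of the 66 in the series, 3 at each age, chosen by the age and strain in their labels, and this strain alone is described because the DBA/2J arrays of these ages include doubtful ones. RNA of whole cerebellum was hybridised to Illumina bead arrays that carry 46632 probes, and the C57BL/6J table holds 35 arrays over 12 ages up to postnatal day 9. The E13 and the E12 mice differ, per the labels, in age alone: both are C57BL/6J, with no allele, treatment or sort named. The labels call the replicates biological, and neither the sex of the embryos nor the number of cerebella in a sample is given in the sources used here. The DBA/2J arrays of the same ages, 3 at each, are set beside them near the end.

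At these ages the cerebellum is a thin plate over the fourth ventricle. Its ventricular zone, which expresses Ptf1a, gives rise to the GABAergic cells, among them the Purkinje cells, and the rhombic lip, which expresses Atoh1, gives rise first to neurons of the cerebellar nuclei and then to granule cell precursors. Purkinje cells leave the cell cycle around these days and begin to migrate and to express neuronal genes, while the signals of the isthmic organiser at the midbrain border (FGF8 and WNT1) still pattern the tissue. Because the whole tissue was measured, fewer cells of a type and less RNA per cell cannot be told apart.

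Signals were quantile normalized and are given as log2 values, on which every array has its median at 6.37. A change is E13 minus E12 on that scale with its standard error (SE) from limma, a linear model fitted to each probe over the 35 arrays, and a gene is called at an adjusted p under 0.05 over 25843 probes. Each of 18585 genes is represented by its brightest kept probe. The tissue carried the transcription factors that mark this region: En2 lay between 12.43 and 12.64 on the 6 arrays, En1 between 11.16 and 11.89 and Gbx2 between 9.99 and 10.54. No kept probe measured Atoh1, Pax2, Skor2 or Pax5. Hoxb4, which marks the caudal hindbrain, stayed between 6.77 and 7.08, close to the array median, whereas Hoxb2 varied between 6.70 and 8.60 over the E13 arrays and between 6.75 and 7.63 over the E12 arrays. Midbrain Otx1 was measured above the median on every array, from 8.90 to 9.88.

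The 6 arrays did not agree equally well. E13 replicates 1 and 3 correlated at r = 0.9941 over the kept probes, but replicate 2 correlated with them at 0.9794 and 0.9784. E12 replicates 1 and 2 correlated at 0.9963, and replicate 3 with them at 0.9832 and 0.9824. Between the ages r ran from 0.966 to 0.9827. E13 replicate 2 and E12 replicate 3 are therefore called the arrays that stand apart, and results are also given without them. No chip and no array series (chips whose numbers begin alike) held arrays of both ages, so no value within a chip or series exists for this comparison. A model with the array series as a term, tied together by the other ages, was fitted as an alternative.

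Between E13 and E12, 1767 of 25843 probes were called (6.84%), 902 higher (3.49%) and 865 lower (3.35%). In genes this was 752 higher and 662 lower of 18585 (7.61% called, 4.05% higher and 3.56% lower), and the median change over all genes was -0.0027. A change of at least 2-fold was met by 147 called genes (0.791%), and among these rises outnumbered falls by 121 to 26. The 3 arrays of the ages did not overlap in 121 of these rises and 24 of these falls, against 12.5% (higher) and 12.1% (lower) of all genes with arrays that did not overlap. Scaled to equal medians in place of quantile normalization, the called probes were 559 higher and 1018 lower. With the array series as a term, 733 probes were called, 446 higher and 287 lower. Leaving out E13 replicate 1 gave 1068 called probes and leaving out E12 replicate 1 gave 1051.

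**Figure D1:**
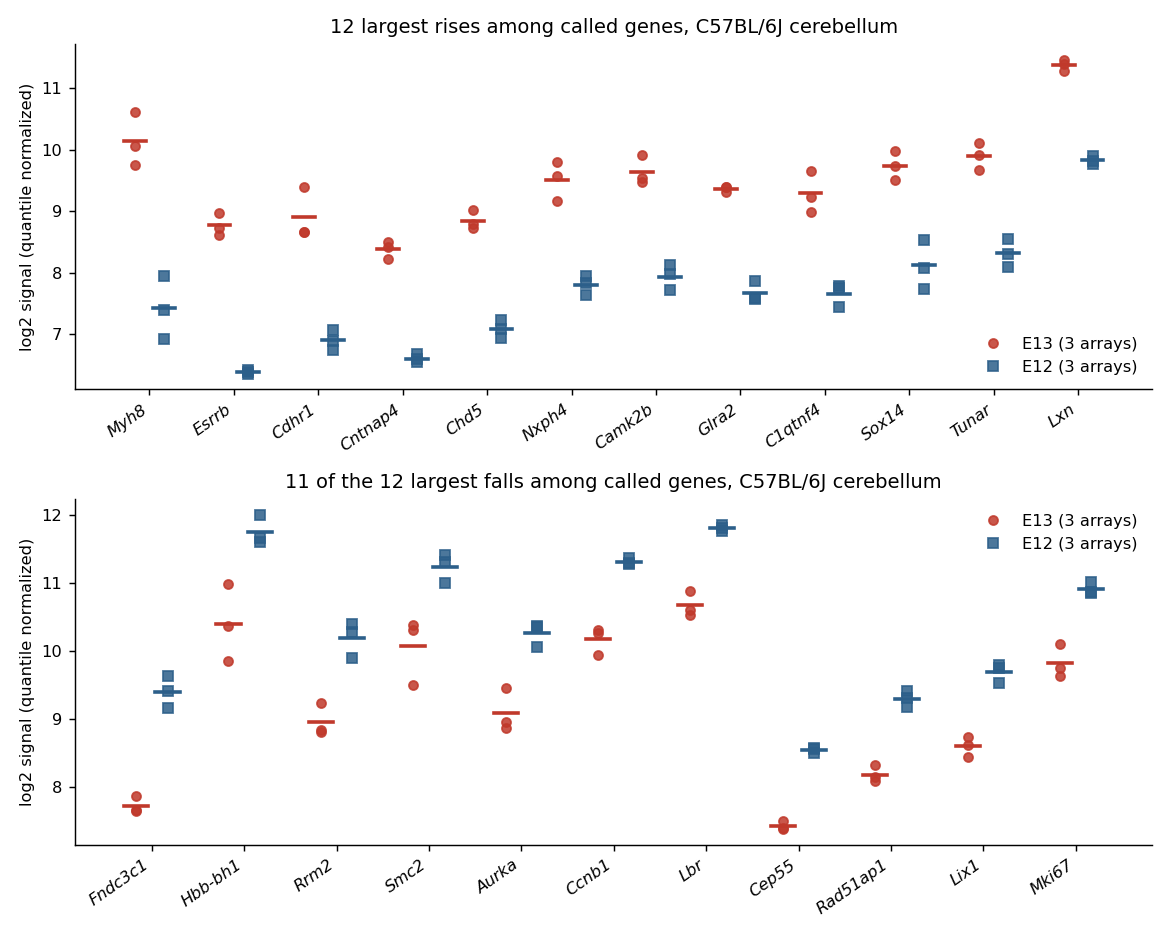
Log2 signal (y axis, quantile normalized) of the 12 called genes with the largest rise (top) and 11 of the 12 with the largest fall (bottom), chosen among genes that changed at least 2-fold and whose ages do not overlap, E13 arrays as red circles to the left of E12 arrays as blue squares, with 1 point per array and a bar at the mean of 3. Among these 23 genes Myh8 shows the largest difference, with 9.75 to 10.60 at E13 and 6.91 to 7.95 at E12.

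Cell cycle transcripts were lower at E13. Of the 31 measured genes of the 34 on the cell cycle list, 22 were lower at E13 and 1 was higher, against 3.56% lower over all genes, and the list median was -0.75. On single arrays the median over the list, relative to each gene's E12 mean, was -0.73, -0.76 and -0.70 at E13 and between -0.05 and 0.05 at E12, so the arrays that stand apart from their age did not stand apart here. Without those 2 arrays 16 members were lower, and with the array series as a term 12 were lower, with medians of -0.80 and -0.56. In neither setting was a member called higher by limma. 

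The lead genes of the list, chosen for their roles and not for the size of their change, were Mki67, the proliferation marker, Top2a, the topoisomerase that untangles replicated DNA, and Ccnb1, the cyclin of entry into mitosis. Mki67 read 9.75, 9.64 and 10.10 at E13, against 11.01, 10.86 and 10.86 at E12. Top2a read 10.24, 10.07 and 10.31 at E13, against 11.36, 11.25 and 11.15 at E12. Ccnb1 read 10.27, 9.94 and 10.30 at E13, against 11.36, 11.27 and 11.30 at E12. The lowest E12 array lay above the highest E13 array in each of them. Their changes were -1.08 ± 0.18 (adjusted p = 0.000207), -1.05 ± 0.14 (adjusted p = 1.62e-05) and -1.14 ± 0.17 (adjusted p = 6.13e-05), or 2.12-, 2.07- and 2.2-fold lower at E13.

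Members of successive steps of the cycle fell, though not every member of each step. Among genes of DNA synthesis, Rrm2, the regulated subunit of ribonucleotide reductase, changed by -1.23 ± 0.16 (adjusted p = 1.35e-05), Mcm5 of the replicative helicase by -0.89 ± 0.12 (adjusted p = 1.82e-05), and Cdc6, which loads that helicase, by -0.83 ± 0.10 (adjusted p = 2.01e-06). Rrm2 read 8.84, 9.23 and 8.81 at E13, against 10.28, 10.39 and 9.90 at E12. Among genes of mitosis, Aurka, the spindle pole kinase, changed by -1.17 ± 0.16 (adjusted p = 1.62e-05) and Cenpe, the kinetochore motor, by -1.02 ± 0.17 (adjusted p = 0.000181). Aurka read 8.87, 9.45 and 8.95 at E13, against 10.35, 10.37 and 10.06 at E12, with E13 replicate 2 the highest of its age. The G1 to S cyclins Ccne1 and Ccne2 changed by -0.63 ± 0.14 and -0.87 ± 0.16, and Ccnd2, the D-type cyclin, by -0.46 ± 0.12 (adjusted p = 0.0185). The Ccne1 call was lost without both arrays that stand apart, and the Ccnd2 call in 10 of 22 alternatives, the array series term among them. Not called were Ccnd1, another D-type cyclin (-0.47 ± 0.16, adjusted p = 0.0724), E2f1 (-0.09 ± 0.15, adjusted p = 0.824) and Bub1 (0.04 ± 0.13, adjusted p = 0.929).

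The one member that rose was Cdkn1a, which encodes the cyclin-dependent kinase inhibitor p21. It read 8.28, 8.90 and 8.22 at E13, against 7.82, 7.87 and 7.50 at E12, a change of 0.74 ± 0.19 (adjusted p = 0.018) with no overlap of the ages, and its 1 other kept probe was called in the same direction. The call was lost with the array series as a term, with scaling to equal medians, in a fit of the 6 arrays alone and of all 66, without E13 replicate 2, without E12 replicate 3 and without both. The other inhibitors of the list were not called. Cdkn1b changed by 0.30 ± 0.22 (adjusted p = 0.541) and Cdkn2c by -0.17 ± 0.18 (adjusted p = 0.683), and Cdkn1c had an adjusted p of 0.998. Pcna (-0.83 ± 0.40, adjusted p = 0.269) and Mcm6 (-0.67 ± 0.31, adjusted p = 0.237) changed as much as called members did but did not pass the test, and both were called in the fit of the 6 arrays alone.

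The regions before the starts of the 3 lead genes are shown because promoters of late cell cycle genes are known for 2 elements, the CCAAT box bound by NF-Y and the cell cycle homology region (CHR). Each line gives 200 bases that end at the base before the RefSeq start, 5′ to 3′ on the strand of the gene, all on the minus strand of GRCm38.p6. Capitals mark CCAAT or its complement ATTGG, and TTTGAA or its complement TTCAAA.
Ccnb1, chr13:100786487-100786686: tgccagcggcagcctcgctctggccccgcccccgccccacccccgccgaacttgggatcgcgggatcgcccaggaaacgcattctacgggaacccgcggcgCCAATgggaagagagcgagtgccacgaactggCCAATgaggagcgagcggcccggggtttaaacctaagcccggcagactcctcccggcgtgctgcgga
Mki67, chr7:135716380-135716579: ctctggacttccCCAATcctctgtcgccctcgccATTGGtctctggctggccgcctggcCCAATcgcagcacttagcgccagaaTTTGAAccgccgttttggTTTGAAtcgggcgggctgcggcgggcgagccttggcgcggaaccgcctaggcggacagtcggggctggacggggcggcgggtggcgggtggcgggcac
Top2a, chr11:99024190-99024389: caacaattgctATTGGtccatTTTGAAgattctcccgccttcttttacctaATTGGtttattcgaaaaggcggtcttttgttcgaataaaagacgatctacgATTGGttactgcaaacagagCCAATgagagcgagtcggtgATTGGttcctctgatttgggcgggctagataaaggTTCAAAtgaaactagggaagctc
Ccnb1 held CCAAT 2 times and no TTTGAA in this window, Mki67 held 3 CCAAT and 2 TTTGAA, and Top2a held 5 and 2. TTTGAA was the only form of the CHR searched, so a window without it may still hold another form. Of the 22 members that were lower, 18 had a window in the RefSeq table, and 14 of these held CCAAT on either strand (77.8%), against 32.7% of 27025 genes with windows of the same length. TTTGAA was held by 5 of the 18 (27.8%), against 14.4% of genes. The E2F sites TTTGGCGC and TTTCCCGC were each held by 1 of the 18, against 0.396% and 0.903% of genes, and no motif searched overlaps another in the windows printed. These matches are letters in a window and were not measured as binding.

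Several of the 12 largest falls were in genes of chromosome segregation and repair. Smc2, a condensin subunit, read 10.31, 9.50 and 10.38 at E13, against 11.40, 11.31 and 10.997 at E12 and changed by -1.17 ± 0.26 (adjusted p = 0.00541); E13 replicate 2 was the lowest array, and without it the call was lost. Cep55, which acts in the last step of cytokinesis, changed by -1.11 ± 0.26 (adjusted p = 0.00672), and Rad51ap1, a gene of DNA repair, by -1.11 ± 0.18 (adjusted p = 0.000215). With the array series as a term, Smc2 (-0.98, adjusted p = 0.0893) and Cep55 (-0.55, adjusted p = 0.277) were no longer called.

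Other large falls lay outside the cell cycle list. Fndc3c1, an X-linked gene for a protein with fibronectin type III domains, fell most: it read 7.67, 7.87 and 7.66 at E13, against 9.63, 9.42 and 9.16 at E12, a change of -1.67 ± 0.13 (adjusted p = 3.86e-09), or 3.19-fold. Lbr, the lamin B receptor of the inner nuclear membrane, read 10.53, 10.61 and 10.88 at E13, against 11.84, 11.80 and 11.76 at E12, a change of -1.13 ± 0.13 (adjusted p = 1.17e-06). Lix1 changed by -1.09 ± 0.13 (adjusted p = 2.74e-06), and all 4 of its other kept probes were called in the same direction.

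Many synaptic and vesicle genes rose. Of the 39 measured genes of 40 on the list, 17 were higher at E13 and none was lower in limma (0 lower at an unadjusted p under 0.05), against 4.05% higher over all genes, and the median change was 0.55, with 35 of 39 changes above 0. Single E13 arrays had list medians of 0.59, 0.53 and 0.57 relative to the E12 means, against -0.05 to 0.05 at E12. Without both arrays that stand apart 12 members were higher, and with the array series as a term 13 were. In these settings 876 and 446 of 25843 probes were higher, against 902 with all 35 arrays and no added term. The largest rises in the list were Camk2b, the beta subunit of the calcium/calmodulin-dependent kinase, and Glra2, the alpha 2 subunit of the glycine receptor that prevails in the embryo. Camk2b read 9.54, 9.91 and 9.46 at E13, against 7.97, 8.12 and 7.71 at E12, and its change was 1.70 ± 0.15 (adjusted p = 5.18e-08), or 3.25-fold. Glra2 read 9.39, 9.39 and 9.31 at E13, against 7.59, 7.87 and 7.57 at E12, a change of 1.69 ± 0.12 (adjusted p = 7.19e-10) and 3.23-fold.

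Parts of the release machinery moved unequally. The vesicle proteins Sv2b and Sv2a changed by 1.496 ± 0.13 (adjusted p = 2.78e-08) and 1.22 ± 0.17 (adjusted p = 2.33e-05), and Cplx1, which clamps the release complex, by 1.36 ± 0.13 (adjusted p = 1.15e-07). Cplx1 read 10.21, 10.06 and 10.08 at E13, against 8.77, 9.07 and 8.45 at E12. Syt1, the calcium sensor of release, changed by 0.71 ± 0.12 (adjusted p = 0.000332), Vamp2, a vesicle SNARE, by 0.78 ± 0.16 (adjusted p = 0.00186), and Snap25, the partner SNARE of the target membrane, was not called (0.36 ± 0.15, adjusted p = 0.189) although its arrays did not overlap. Syp, the vesicle marker, read 10.21, 10.78 and 10.30 at E13, against 9.71, 9.82 and 9.26 at E12; its change of 0.83 ± 0.22 (adjusted p = 0.0171) lost the call without E13 replicate 2, without E12 replicate 3, without both, and with the array series as a term. Among receptors, the NMDA receptor subunit Grin2b changed by 1.30 ± 0.18 (adjusted p = 2.33e-05) and the AMPA receptor subunit Gria1 by 0.98 ± 0.18 (adjusted p = 0.000565), while the Grin1 probe, for the subunit that all NMDA receptors share, was not above the array median on any of the 6 arrays. With the array series as a term over all 66 arrays the calls of Sv2b, Cplx1, Syt1, Vamp2, Grin2b and Gria1 were lost. The vesicular glutamate transporter Slc17a6 was not called (0.47 ± 0.15, adjusted p = 0.0594) but was called higher in 4 of 22 alternatives. The probe of Slc17a7 was not above the array median on any of these arrays.

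Some genes of neuron differentiation rose. On the list of neuron differentiation and the cytoskeleton, 8 of 43 measured genes (45 listed) were higher and none lower in limma (2 lower at an unadjusted p under 0.05), against 4.05% higher and 3.56% lower over all genes, with a median of 0.39 and 36 changes above 0. Mapt, which encodes the microtubule protein tau, read 12.11, 12.32 and 11.96 at E13, against 10.50, 10.89 and 10.72 at E12, a change of 1.43 ± 0.17 (adjusted p = 2.42e-06) and 2.69-fold. Myt1l, a zinc finger factor of postmitotic neurons, changed by 1.10 ± 0.12 (adjusted p = 4.67e-07), and Uchl1, the neuronal deubiquitinase PGP9.5, by 1.00 ± 0.16 (adjusted p = 0.000181). Common markers of young neurons did not pass the test. Dcx read 12.60, 12.49 and 12.74 at E13, against 12.00, 12.13 and 12.66 at E12, a change of 0.35 ± 0.13 (adjusted p = 0.105), and E12 replicate 3 reached the E13 range. Tubb3 changed by 0.34 ± 0.17 (adjusted p = 0.285) and Stmn2 by 0.49 ± 0.17 (adjusted p = 0.0924). Dcx was called in 5 of 22 alternatives, and Tubb3 and Stmn2 in 1 each. Those of Dcx included the array series term (0.50, adjusted p = 0.0311) and the fit without both arrays that stand apart (0.61, adjusted p = 0.00275). The count of higher genes on the list was 9 without both arrays that stand apart and 8 with the array series as a term.

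**Figure D2:**
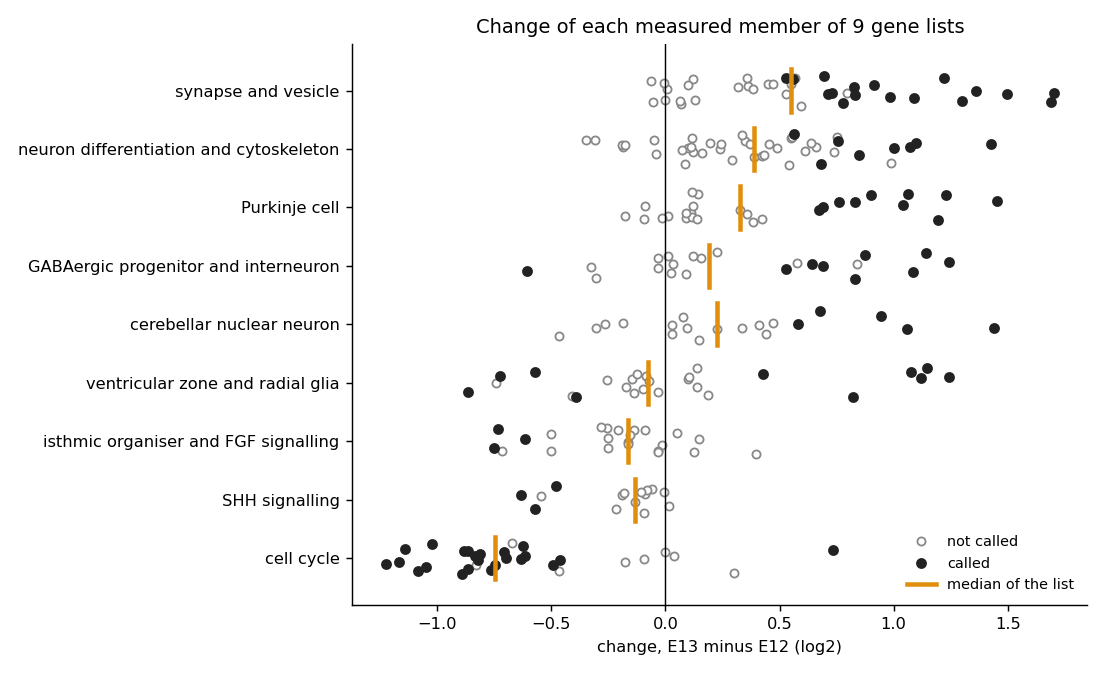
Change from E12 to E13 (x axis, log2, E13 minus E12) of each measured member of 9 gene lists. Filled points passed the test, open points did not, and the orange bar is the list median, which runs from 0.55 in the synapse list to -0.75 in the cell cycle list. Points are spread vertically at random within a list.

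Some early Purkinje cell genes rose. Of 27 measured genes (31 listed), 10 were higher and none lower in limma (0 lower at an unadjusted p under 0.05), against 4.05% higher over all genes, 17 did not pass the test, and the median was 0.33. Foxp2, a forkhead factor of Purkinje cells, read 9.26, 9.04 and 9.13 at E13, against 7.65, 7.73 and 7.69 at E12, a change of 1.45 ± 0.15 (adjusted p = 4.67e-07) and 2.74-fold. Rora, the nuclear receptor mutated in staggerer mice, read 8.51, 7.77 and 8.13 at E13, against 7.05, 6.84 and 6.94 at E12, a change of 1.19 ± 0.22 (adjusted p = 0.000745). Both were without overlap between the ages. Lhx5, a LIM factor of GABAergic progeny, changed by 0.69 ± 0.16 (adjusted p = 0.00767), a call lost without E12 replicate 1, Bcl11b by 0.83 ± 0.12 (adjusted p = 3.34e-05), Rgs8, a regulator of G protein signalling, by 0.90 ± 0.20 (adjusted p = 0.00474), and Pcdh10, a protocadherin of Purkinje cell stripes, by 1.04 ± 0.18 (adjusted p = 0.000331). Of later markers, Pcp2 was not called (0.12 ± 0.29, adjusted p = 0.892), and the probe of Calb1, for calbindin, lay between 6.12 and 6.42, around the array median. Pvalb, the calcium buffer of mature Purkinje cells and interneurons, was called at 1.23 ± 0.23 (adjusted p = 0.000968) and read 9.85, 10.38 and 9.92 at E13, against 9.09, 8.97 and 8.40 at E12, and Aldoc, which mature stripes and astroglia share, changed by 1.07 ± 0.18 (adjusted p = 0.000366). Without both arrays that stand apart 9 members were higher, and with the array series as a term 8 were. The calls of Rora, Pvalb and Aldoc were lost with the array series as a term over all 66 arrays, those of Rora and Pvalb also with all 66 arrays in the fit, and the call of Rgs8 with the array series as a term.

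Some genes of GABA synthesis and transport rose. Of 22 measured genes on the list (25 listed), 8 were higher and 1 lower, against 4.05% higher and 3.56% lower over all genes, with a median of 0.19. Ptf1a, which specifies the GABAergic progenitors, was not called: it read 10.91, 10.41 and 10.84 at E13, against 10.95, 11.01 and 11.16 at E12, a change of -0.32 ± 0.22 (adjusted p = 0.481). In contrast, Slc32a1, the vesicular transporter of GABA and glycine, read 11.54, 11.59 and 11.26 at E13, against 9.98, 10.52 and 10.48 at E12, a change of 1.14 ± 0.13 (adjusted p = 9.69e-07) and 2.2-fold. Gad1, a GABA synthesising enzyme, read 9.82, 10.35 and 10.02 at E13, against 9.05, 9.23 and 9.42 at E12, a change of 0.83 ± 0.17 (adjusted p = 0.00242), which with the array series as a term became 0.74 (adjusted p = 0.0741). Tfap2a, a factor downstream of Ptf1a in the cerebellum, changed by 0.88 ± 0.13 (adjusted p = 4.25e-05), and Gjd2, the neuronal gap junction protein connexin 36, by 1.24 ± 0.25 (adjusted p = 0.00183). Npy, a neuropeptide, changed by 1.08 ± 0.17 (adjusted p = 0.000149) and was not above the array median on any E12 array, so that its change may be a lower bound. The member that was lower was Cdh1, the epithelial cadherin, at -0.60 ± 0.12 (adjusted p = 0.00209).

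Some genes of the cerebellar nuclei and the rhombic lip rose. On the nuclear neuron list 5 of 19 measured genes (22 listed) were higher, against 4.05% of all genes. None was lower in limma (2 at an unadjusted p under 0.05), against 3.56%. Calb2, the calcium buffer calretinin, read 8.71, 8.34 and 8.39 at E13, against 7.03, 7.22 and 6.87 at E12, a change of 1.44 ± 0.15 (adjusted p = 2.3e-07). Tbr1, a factor of early nuclear neurons, changed by 0.58 ± 0.12 (adjusted p = 0.00213) and read 7.18, 6.94 and 7.22 at E13, against 6.53, 6.61 and 6.46 at E12. Reln, the secreted guide of Purkinje cell migration, changed by 0.94 ± 0.22 (adjusted p = 0.00762), but it lost the call without E13 replicate 3, without E12 replicate 2 and with the array series as a term (0.63, adjusted p = 0.284). Lhx9 (-0.19 ± 0.12, adjusted p = 0.463) and Irx3 (0.03 ± 0.20, adjusted p = 0.964) were not called. On the rhombic lip list 4 of 24 measured genes (30 listed) were higher, against the same 4.05% of all genes. None was lower in limma (3 at an unadjusted p under 0.05). The 4 were Neurod2, a differentiation factor, at 1.54 ± 0.17 (adjusted p = 1.11e-06), Nfix at 1.40 ± 0.25 (adjusted p = 0.000509), Pax6 at 0.82 ± 0.20 (adjusted p = 0.0093) and Tlx3 at 0.66 ± 0.20 (adjusted p = 0.0385). Neurod2 read 9.79, 9.90 and 9.91 at E13, against 8.67, 8.34 and 7.96 at E12. The Nfix call was lost with the array series as a term over all 66 arrays. The Pax6 call was lost without E13 replicate 2 and with the array series as a term, and the Tlx3 call, whose ages overlapped, with the array series as a term and without E13 replicate 1, E12 replicate 1 or E12 replicate 2. Barhl1, a factor of the granule lineage, stayed between 6.58 and 6.92.

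The 12 largest rises held several genes outside these lists. Myh8, the perinatal myosin heavy chain of skeletal muscle, rose most: it read 10.06, 9.75 and 10.60 at E13, against 7.95, 7.39 and 6.91 at E12, a change of 2.72 ± 0.21 (adjusted p = 3.86e-09), or 6.59-fold. By age its level was 7.42 ± 0.52 at E12 (SD, n = 3), 10.14 ± 0.43 at E13 (n = 3), 10.13 ± 0.07 at E14 (n = 2) and 6.46 ± 0.03 at P9 (n = 3), and its 1 other kept probe was not called. Esrrb, an orphan nuclear receptor, read 8.97, 8.72 and 8.61 at E13, against 6.36, 6.41 and 6.38 at E12, a change of 2.39 ± 0.13 (adjusted p = 5.86e-12) and 5.23-fold; its E12 arrays lay at the array median, so that this fold may be a lower bound. Cdhr1, the photoreceptor cadherin, read 8.67, 8.66 and 9.39 at E13, against 7.07, 6.89 and 6.74 at E12, a change of 2.01 ± 0.18 (adjusted p = 4.22e-08).

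Of the remaining rises, Cntnap4, a neurexin-like adhesion protein of interneuron synapses, read 8.49, 8.22 and 8.42 at E13, against 6.59, 6.67 and 6.54 at E12, a change of 1.78 ± 0.16 (adjusted p = 5.83e-08). Chd5, a chromatin remodeller of neurons, changed by 1.76 ± 0.19 (adjusted p = 4.81e-07), and Nxph4, a secreted neurexophilin, by 1.71 ± 0.31 (adjusted p = 0.000725). The Nxph4 call was lost with the array series as a term. Sox14, a Sox factor of GABAergic populations, read 9.98, 9.50 and 9.73 at E13, against 7.74, 8.53 and 8.08 at E12, a change of 1.62 ± 0.18 (adjusted p = 6.08e-07). C1qtnf4, a secreted protein, changed by 1.63 ± 0.17 (adjusted p = 2.3e-07), the noncoding RNA Tunar by 1.58 ± 0.15 (adjusted p = 8.05e-08), and Lxn, the carboxypeptidase inhibitor latexin, by 1.55 ± 0.12 (adjusted p = 5.72e-09). Lxn read 11.38, 11.28 and 11.46 at E13, against 9.90, 9.81 and 9.76 at E12. The 12 were chosen among genes whose ages do not overlap.

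The ventricular zone list moved in both directions. Of 26 measured genes (28 listed), 6 were higher and 4 lower, against 4.05% and 3.56% of all genes, and the median was -0.08. On the list of astroglia and Bergmann glia, which shares members with it, 4 of 18 measured genes were higher, against the same 4.05%. Of the others, 1 was lower, against 3.56%, and 13 did not pass. The lower one was Gja1, the astroglial connexin 43, at -0.59 ± 0.14 (adjusted p = 0.00834), a call lost with scaling to equal medians, with the array series as a term and without E13 replicate 1 or E12 replicate 1. Hopx, a homeodomain protein of glial progenitors, read 8.26, 8.601 and 8.48 at E13, against 7.42, 7.21 and 6.97 at E12, a change of 1.24 ± 0.16 (adjusted p = 8.81e-06). Slc1a3, the glutamate transporter GLAST, read 10.93, 10.99 and 11.10 at E13, against 10.21, 10.05 and 9.52 at E12, a change of 1.08 ± 0.14 (adjusted p = 1.56e-05), Tnc, the matrix protein tenascin C, changed by 1.15 ± 0.22 (adjusted p = 0.000982), and Nfib, a nuclear factor I gene, by 1.12 ± 0.15 (adjusted p = 1.39e-05). The members that fell were Prom1 (-0.86 ± 0.09, adjusted p = 2.69e-07), which encodes prominin 1 of the apical membrane, Rfx4 (-0.72 ± 0.19, adjusted p = 0.0197), Gli3 (-0.57 ± 0.10, adjusted p = 0.000373) and Pax3 (-0.39 ± 0.10, adjusted p = 0.0124). The calls of Rfx4 and Pax3 were lost in 8 of 22 alternatives each, the array series term among them, and those of Hopx, Slc1a3 and Tnc with that term over all 66 arrays. Sox2, the progenitor factor, and Hes5, a target of Notch, were not called, with 0.14 ± 0.22 (adjusted p = 0.817) and 0.10 ± 0.26 (adjusted p = 0.898). Hes5 read 11.37, 10.44 and 11.03 at E13, against 10.58, 10.59 and 11.37 at E12, so that the E12 replicate that stands apart reached the highest E13 array. The Fabp7 probe stayed between 6.25 and 6.71, near the array median. On the Notch and proneural list 2 of 24 measured genes were higher, against 4.05% of all genes. None was lower in limma (4 at an unadjusted p under 0.05). The 2 higher members were Cbfa2t3 and Ebf3. Both calls were lost with the array series as a term and without any 1 of E13 replicates 1 and 3 and E12 replicates 1 and 2. The ligand Dll1 (-0.48 ± 0.17, adjusted p = 0.0948) and the proneural factor Neurog2 (-0.26 ± 0.16, adjusted p = 0.435) did not pass the test. Dll1 was called lower in 4 of 22 alternatives, scaling to equal medians among them.

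Patterning genes of the isthmus were lower where called. On the list of the isthmic organiser and FGF signalling, 3 of 23 measured genes were lower, against 3.56% of all genes. None was higher in limma (1 at an unadjusted p under 0.05), against 4.05%. Fgf8, the organiser's ligand, read 6.52, 7.24 and 6.55 at E13, against 8.02, 7.63 and 6.85 at E12, a change of -0.73 ± 0.19 (adjusted p = 0.016). E12 replicate 3 and E13 replicate 2 overlapped, and without these 2 arrays the change was -1.29, while the call was lost without any 1 of E13 replicates 1 and 3 and E12 replicates 1 and 2, in the fit of the 6 arrays alone and with the array series as a term (-0.58, adjusted p = 0.296). Fgfr2, a receptor, read 10.61, 10.52 and 10.86 at E13, against 11.32, 11.10 and 11.41 at E12, a change of -0.62 ± 0.10 (adjusted p = 0.000312) with no overlap. Otx2, a midbrain factor that borders the organiser and also marks choroid plexus, changed by -0.75 ± 0.21 (adjusted p = 0.0258), with E13 replicate 2 inside the E12 range. Its call was lost without E13 replicate 1, E13 replicate 3, E12 replicate 1 or E12 replicate 3 and with the array series as a term. En1 (0.40 ± 0.16, adjusted p = 0.163) and Fgf15 (-0.14 ± 0.18, adjusted p = 0.776) were not called. En1 was called higher in 1 of 22 alternatives, without E13 replicate 3.

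Of 15 measured genes of SHH signalling (20 listed), 3 were lower, against 3.56% of all genes. None was higher in limma (0 at an unadjusted p under 0.05), against 4.05%. The transcription factor Gli3 read 10.73, 10.96 and 10.76 at E13, against 11.47, 11.29 and 11.41 at E12, a change of -0.57 ± 0.10 (adjusted p = 0.000373). The co-receptor Cdon changed by -0.63 ± 0.12 (adjusted p = 0.00065), a call lost in the fit of the 6 arrays alone, and Gli2 by -0.48 ± 0.14 (adjusted p = 0.0354), a call that any single array left out removed. Shh itself lay between 6.14 and 6.43, near the array median, and Ptch1, receptor and target, changed by -0.19 ± 0.20 (adjusted p = 0.7). On the WNT list 1 of 28 measured genes was higher and 2 were lower, against 4.05% and 3.56% of all genes. Dkk3, a secreted member of the Dickkopf family, read 10.10, 10.10 and 10.60 at E13, against 9.26, 8.74 and 8.59 at E12, a change of 1.41 ± 0.15 (adjusted p = 3.14e-07). The ligands that fell were Wnt3 (-0.43 ± 0.11, adjusted p = 0.0158) and Wnt3a (-0.54 ± 0.16, adjusted p = 0.0448), and both calls were lost with the array series as a term. The Wnt3 call was also lost without E13 replicate 1, E13 replicate 2 or E12 replicate 3, and the Wnt3a call without E13 replicate 1, E13 replicate 3, E12 replicate 1 or E12 replicate 2. Wnt1 (-0.25 ± 0.11, adjusted p = 0.206) and the target Axin2 (-0.10 ± 0.22, adjusted p = 0.884) were not called. Wnt1 was called without E12 replicate 3 and without both arrays that stand apart (-0.48, adjusted p = 0.00681). Without both, Wnt3a changed by -1.03 (adjusted p = 4.87e-06), while Wnt3 was not called (-0.35, adjusted p = 0.122).

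Of 22 measured genes of BMP and TGF-beta signalling, 3 were lower and 1 higher, against 3.56% and 4.05% of all genes. The receptor Bmpr1b read 7.67, 7.96 and 8.01 at E13, against 8.75, 8.69 and 8.48 at E12, a change of -0.76 ± 0.15 (adjusted p = 0.00134), the secreted modulator Bmper changed by -0.54 ± 0.10 (adjusted p = 0.00115), a call lost with the array series as a term (-0.37, adjusted p = 0.145) and in the fit of the 6 arrays alone, and Tgfbr1 and Gdf10 were called at -0.42 ± 0.12 (adjusted p = 0.0373) and 0.43 ± 0.13 (adjusted p = 0.0382), lost in 15 and 14 of 22 alternatives, among them the array series term, E13 replicate 1 left out and E13 replicate 3 left out. In the retinoic acid pathway 1 of 14 measured genes was called, against 7.61% of all genes. It was the receptor Rxrg (0.71 ± 0.17, adjusted p = 0.00941), a call lost without E12 replicate 3 and with the array series as a term. The binding proteins Crabp1 (-0.56 ± 0.18, adjusted p = 0.0618) and Crabp2 (-0.53 ± 0.18, adjusted p = 0.0727) did not pass the test. Crabp1 was called lower in 3 of 22 alternatives and Crabp2 in 4, both of them without E13 replicate 2. 

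A few guidance and adhesion genes rose. On the axon guidance list 5 of 37 measured genes were higher, against 4.05% of all genes. None was lower in limma (2 at an unadjusted p under 0.05), against 3.56%. Ephb1, an Eph receptor, read 11.02, 10.86 and 10.86 at E13, against 10.003, 9.91 and 9.54 at E12, a change of 1.09 ± 0.10 (adjusted p = 9.18e-08). The semaphorin co-receptors Nrp1 and Nrp2 changed by 0.68 ± 0.16 (adjusted p = 0.00613) and 0.98 ± 0.19 (adjusted p = 0.0015), the netrin receptor Unc5d by 0.80 ± 0.11 (adjusted p = 2.45e-05), and Robo2 by 0.76 ± 0.18 (adjusted p = 0.00656), a call lost without both arrays that stand apart (0.67, adjusted p = 0.0594), while Robo1 (0.05 ± 0.18, adjusted p = 0.931) and Dcc (-0.26 ± 0.24, adjusted p = 0.632) were not called. Among cadherins, Cdh4 changed by 1.09 ± 0.13 (adjusted p = 2.31e-06) and Cdh2, the neural cadherin, did not pass the test (-0.09 ± 0.07, adjusted p = 0.601). In the Reelin pathway the receptor Vldlr (0.35 ± 0.12, adjusted p = 0.103) and the adaptor Dab1 (0.36 ± 0.17, adjusted p = 0.26) were not called, Cdk5r1, the activator of CDK5, changed by 0.66 ± 0.14 (adjusted p = 0.00355), and Nde1, a dynein regulator also used in mitosis, by -0.87 ± 0.16 (adjusted p = 0.000584). On the ion channel list none of 27 measured genes was lower in limma (0 at an unadjusted p under 0.05). Higher were 4, against 4.05% of all genes, led by Cacng2, the AMPA receptor partner stargazin, at 1.19 ± 0.19 (adjusted p = 0.000176) and the potassium channel Kcnc1 at 1.06 ± 0.11 (adjusted p = 2.56e-07). Of the other calls, that of Scn3b was lost in 13 of 22 alternatives, among them the array series term and any 1 of E13 replicates 1 and 3 and the E12 replicates left out.

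**Figure D3:**
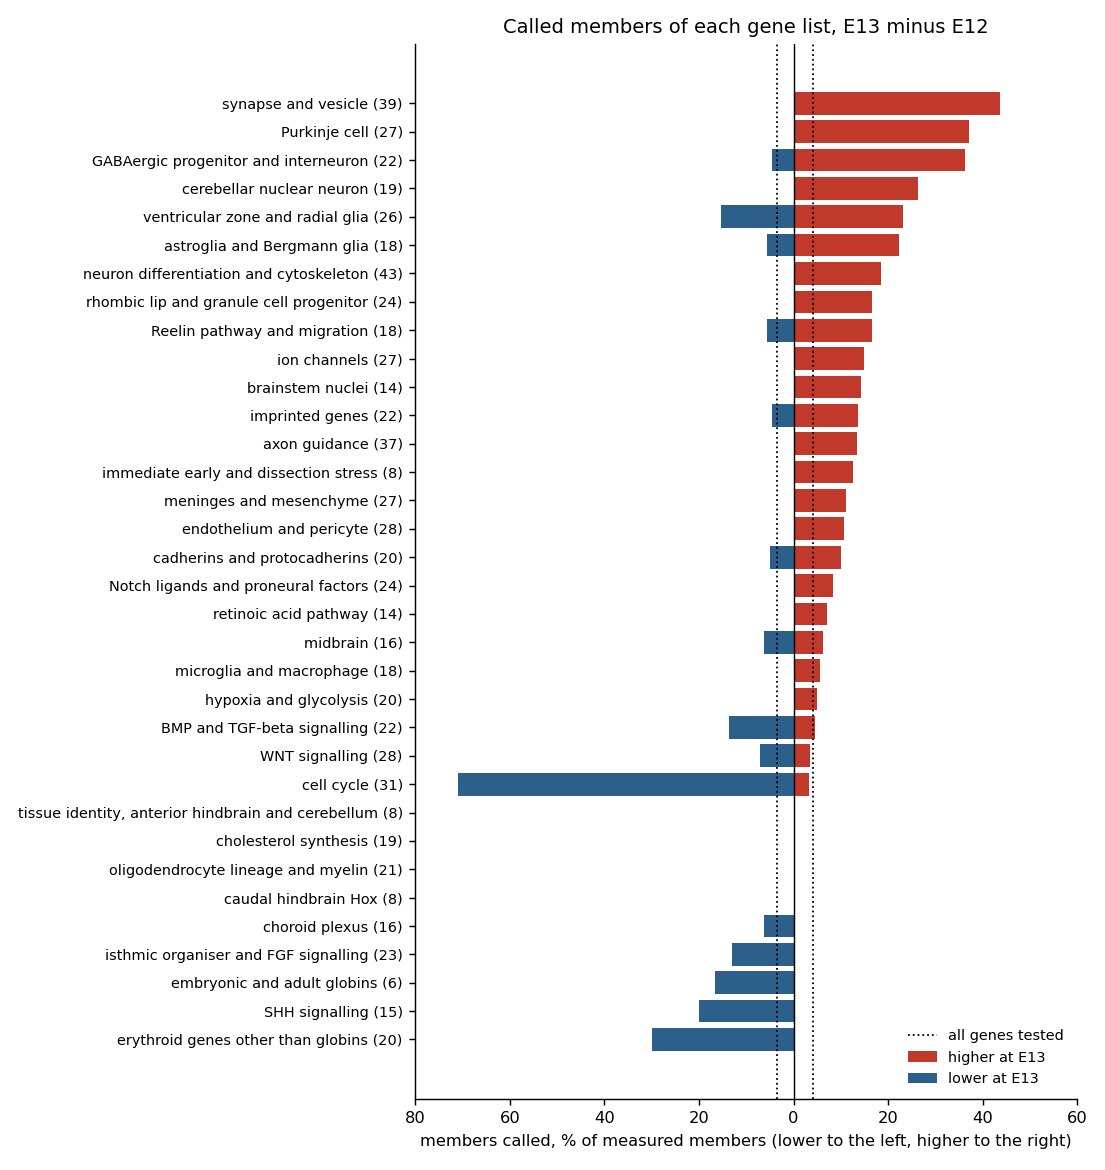
Share of the measured members of each list other than the sex-linked genes (number measured in brackets) that passed the test, higher at E13 to the right in red and lower at E13 to the left in blue. Dotted lines mark the shares over all genes tested, 4.05% higher and 3.56% lower. The synapse list reaches furthest to the right (17 of 39) and the cell cycle list furthest to the left (22 of 31).

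Among globins 1 of 6 measured genes was called, against 7.61% of all genes. Hbb-bh1, an embryonic beta-like globin of primitive red cells, read 10.36, 10.98 and 9.85 at E13, against 11.60, 12.00 and 11.66 at E12, a change of -1.35 ± 0.28 (adjusted p = 0.00269) and 2.55-fold lower. With the array series as a term it was -0.82 (adjusted p = 0.336). The other embryonic globins were not called, with 0.11 ± 0.47 (adjusted p = 0.94) for Hbb-y and -0.08 ± 0.37 (adjusted p = 0.948) for Hba-x, nor were the adult Hba-a1 (0.27 ± 0.15, adjusted p = 0.352) and Hbb-b1 (0.43 ± 0.17, adjusted p = 0.156). Globin genes are near-identical copies in part, so a probe may read more than 1. Of 20 measured erythroid genes other than globins, none was higher in limma (1 at an unadjusted p under 0.05). The lower ones numbered 6, against 3.56% of all genes, or 1 with the array series as a term (287 of 25843 probes lower). Those of red cells included Slc4a1, the anion exchanger of the membrane (-0.49 ± 0.14, adjusted p = 0.0326), whose call was lost with that term and without E13 replicate 1, E13 replicate 3, E12 replicate 2 or E12 replicate 3. Nifk (-0.50 ± 0.15, adjusted p = 0.0331), listed there under an older symbol, encodes a nucleolar protein and is no red cell marker.

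Some markers of other cell types were called. Of 28 measured vessel genes 3 were higher, against 4.05% of all genes. None was lower in limma (1 at an unadjusted p under 0.05), against 3.56%. The 3 were Cldn5, the tight junction protein of brain endothelium, at 1.00 ± 0.18 (adjusted p = 0.000558), and Flt1 and Sox18, whose calls were lost in 17 and 15 of 22 alternatives. Pecam1, expressed throughout endothelium, was not called (-0.02 ± 0.22, adjusted p = 0.975). Of 27 measured genes of meninges and mesenchyme 3 were higher, against the same 4.05%. None was lower in limma (1 at an unadjusted p under 0.05). The 3 higher genes were Col1a1 (0.63 ± 0.11, adjusted p = 0.00027), not above the array median on any E12 array, Igf2 (0.65 ± 0.16, adjusted p = 0.0112) and Cxcl12 (0.68 ± 0.18, adjusted p = 0.0203). All 3 calls were lost with the array series as a term, that of Igf2 also without E12 replicate 1 and that of Cxcl12 without E13 replicate 2, E12 replicate 2 or E12 replicate 3. The median change of that list was 0.08, with 19 of 27 changes above 0, and 24 members did not pass the test. Among these were Col3a1 (-0.11 ± 0.25, adjusted p = 0.881) and Dcn (-0.23 ± 0.26, adjusted p = 0.726). The summed linear signal of that list, in which bright members weigh most, was 16750 to 19110 at E13 and 12400 to 14950 at E12. The part of such cells in the neuronal and cell cycle changes was not tested. The microglial markers Csf1r and Aif1 lay between 6.23 and 7.33 on the 6 arrays and were not called, and the choroid plexus markers Ttr and Folr1 lay between 6.09 and 7.09. Of 18 measured genes of microglia and macrophages 1 was higher, against 4.05% of all genes, and 0 were lower. Of 16 measured choroid plexus genes 1 was lower, Otx2, against 3.56% of all genes, and 0 were higher in limma (4 at an unadjusted p under 0.05).

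One E13 array read highest for the late glial transcripts Mbp and Aqp4. Mbp, the myelin basic protein, read 7.53, 7.26 and 8.97 at E13, against 7.51, 7.43 and 7.54 at E12, and Aqp4, the water channel of astrocytes, read 6.62, 6.54 and 7.42 at E13, against 6.40, 6.50 and 6.48 at E12. E13 replicate 3 was the highest array in both. The summed signal of the 21 oligodendrocyte and myelin genes, Mbp among them, was 3617 on it, 3099 and 3098 on the other E13 arrays and 3015 to 3136 at E12. That of the astroglia and Bergmann glia list, which holds Aqp4, was 15130 on E13 replicate 3, against 14580 and 15270 on the other E13 arrays. None of the 21 oligodendrocyte and myelin genes was called by limma (at an unadjusted p under 0.05, 1 was higher and 0 lower). Sex-linked transcripts differed among replicates: Xist read 10.46, 9.22 and 11.72 at E13, against 6.59, 9.95 and 10.60 at E12, and Eif2s3y, encoded on the Y chromosome, read 8.14, 8.64 and 7.05 at E13, against 9.14, 8.59 and 9.05 at E12. Neither change was called, and their part in the other results was not tested.

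A host transcript of miRNAs, picked after its value was seen, was also lower at E13. Mir17hg, the precursor transcript of the miR-17 to miR-92 cluster, read 9.65, 9.86 and 9.83 at E13, against 10.96, 10.75 and 10.52 at E12, a change of -0.96 ± 0.22 (adjusted p = 0.00498) and 1.94-fold lower. The array measured this transcript and not the mature miRNAs, whose RefSeq sequences (GRCm38.p6, plus strand of chromosome 14) are shown because the cluster makes several families. Capitals mark the seed, bases 2 to 8.
miR-17-5p, chr14:115043684-115043706: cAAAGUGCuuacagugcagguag
miR-20a-5p, chr14:115044183-115044205: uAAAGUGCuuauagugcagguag
miR-18a-5p, chr14:115043867-115043889: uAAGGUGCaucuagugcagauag
miR-19a-3p, chr14:115044048-115044070: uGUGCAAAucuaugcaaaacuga
miR-19b-3p, chr14:115044358-115044380: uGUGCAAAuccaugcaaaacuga
miR-92a-3p, chr14:115044476-115044496: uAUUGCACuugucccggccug
The 2 members of the first family share the seed AAAGUGC, the 2 miR-19 members share GUGCAAA, and miR-18a-5p and miR-92a-3p each have a seed of their own.

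Differences in the cell cycle and synapse lists were larger at E14. The median of the cell cycle list relative to E12 was -1.19 and -1.29 on the 2 arrays of E14, and that of the synapse list was 1.13 and 1.01. In the contrast of E14 with E13, which shares the E13 arrays, 661 of 25843 probes were called (2.56%, with 1.59% higher and 0.964% lower), and 7 of 31 cell cycle genes were lower and 12 of 39 synapse genes higher. Of 27 Purkinje cell genes 7 were higher (median change 0.30). The neuron differentiation list moved less, with 2 of 43 genes higher and a median change of 0.09. Single genes took different courses after E13: Calb2 changed further by 1.82 (adjusted p = 1.44e-07) and Rora by 2.17 (adjusted p = 4.67e-06), whereas Sox14 changed by -0.25 (adjusted p = 0.67) and Dkk3 by -0.30 (adjusted p = 0.465). Hbb-bh1 changed by -2.53 (adjusted p = 1.72e-05).

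**Figure D4:**
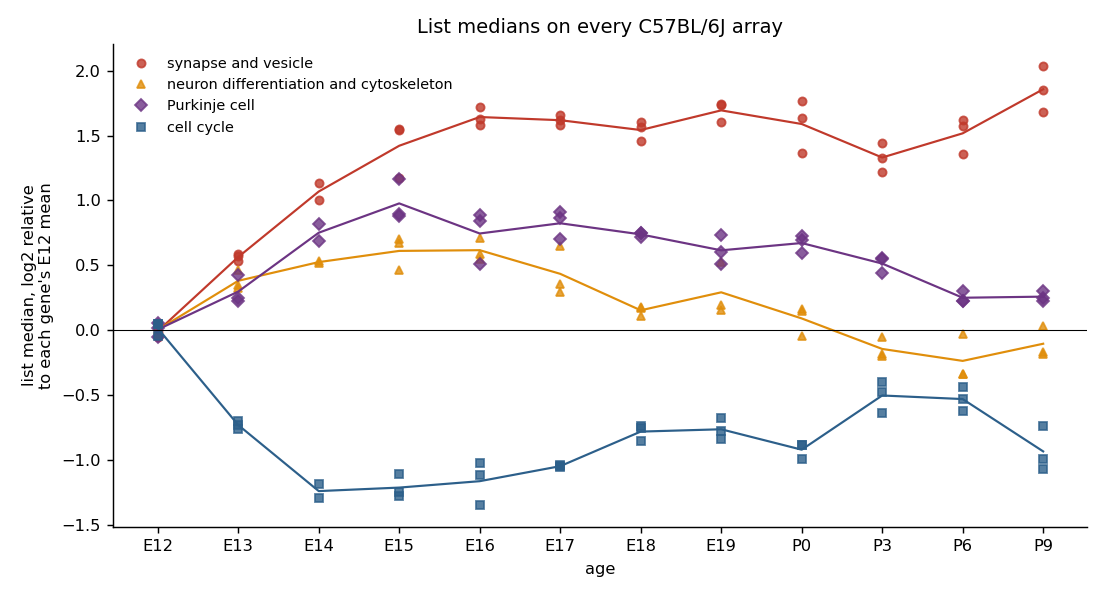
Median over the measured members of 4 gene lists on each C57BL/6J array (points), as log2 relative to each gene's E12 mean, by age from E12 to P9 (x axis), with a line through the mean of the arrays at each age. The cell cycle list lies between -0.76 and -0.70 on the E13 arrays and below -1.1 on the E14 arrays, and the synapse list between 0.53 and 0.59 and above 1.0.

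The same contrast was set beside DBA/2J, a second inbred strain, whose arrays are separate samples but lie in part on the same chips: 2 chips hold E13 arrays of both strains, 2 hold E12 arrays of both, and 1 holds DBA/2J E12 beside C57BL/6J E13. In DBA/2J 777 of 25203 probes were called (3.08%, with 1.52% higher and 1.56% lower). Of the 752 genes higher in C57BL/6J, 749 were measured in DBA/2J, and 643 (85.8%) were higher there too, against 48.3% of all genes, with 161 called. Of the 662 lower genes, 646 were measured and 564 (87.3%) were lower, against 51.7% of all genes, with 168 called. The array labelled DBA/2J E12 replicate 2 read 12.25 for Mbp, against 8.15 and 8.15 on the other E12 arrays of the strain. Without it 2.62% of probes were called (1.38% higher, 1.24% lower), and the shares in the same direction were 90.8% and 88.7%. DBA/2J E13 replicate 1 correlated with the other E13 arrays of its strain at 0.94 and 0.9426, against 0.9877 between those. Without both doubtful arrays the shares were 93.6% and 91.8%, against 46.2% and 53.8% of all genes. Among the E12 arrays of the strain, correlation set replicate 1 apart and not replicate 2. Replicate 1 correlated with replicates 2 and 3 at 0.9669 and 0.9696, against 0.9811 between those. E12 replicate 3, which was kept, correlated with E13 replicate 2 at 0.9794. In DBA/2J 18 of 31 cell cycle genes were lower and 3 of 37 measured synapse genes higher. Without E12 replicate 2 these were 15 and 6, and without both doubtful arrays 18 and 11. In that last setting 1 cell cycle gene was higher, and 1323 of 25203 probes were called, against 777.

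Several of the largest changes were called in both strains. In C57BL/6J Myh8 changed by 2.72, against 3.01 in DBA/2J, and Fndc3c1 changed by -1.67, against -1.45 in DBA/2J. Foxp2 changed by 1.45 in C57BL/6J, against 1.63 in DBA/2J, and Top2a by -1.05 in C57BL/6J, against -0.97 in DBA/2J. For others the DBA/2J value turned on E12 replicate 2. Camk2b changed by 1.70 in C57BL/6J and was not called in DBA/2J at 0.24, but was at 0.77 without that array. Hopx, at 1.24 in C57BL/6J, was not called in DBA/2J with it (-0.33) or without it (0.69), and the sign differed. A test of the difference itself, with both doubtful DBA/2J arrays kept, called 20 of 26645 probes (0.0751%). Among the 12 largest rises it called 1, Esrrb, with a change of 2.39 in C57BL/6J, against 0.53 for DBA/2J: Esrrb was not called in DBA/2J, and the difference, taken as DBA/2J minus C57BL/6J, was -1.80 (adjusted p = 4.14e-05).

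**Figure D5:**
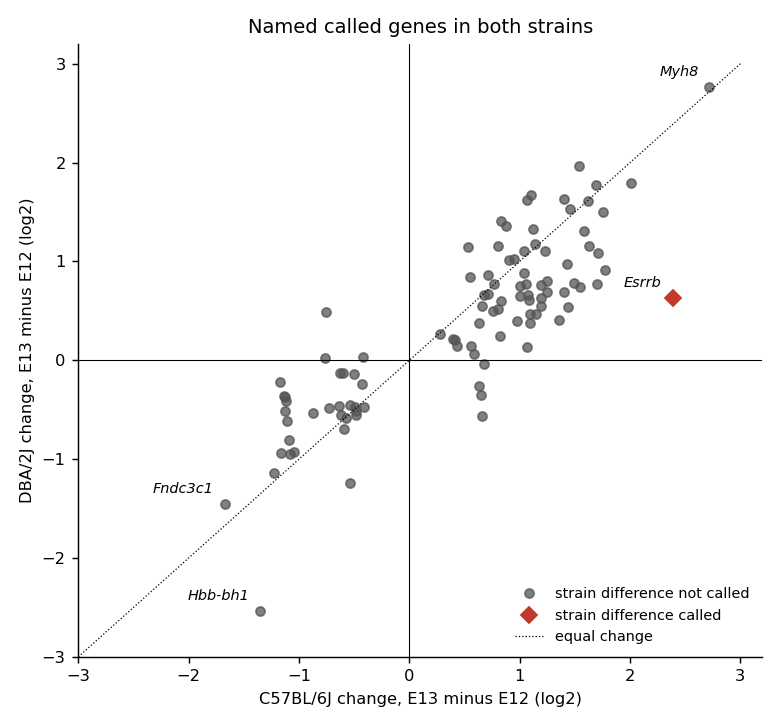
Change from E12 to E13 of the 101 named called genes measured in both strains, C57BL/6J on the x axis and DBA/2J (without E12 replicate 2) on the y axis, both in log2. The dotted line marks equal change. Esrrb, the red diamond, is the 1 gene among them whose strain difference passed the test.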

How the data were processed

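Whole-cerebellum RNA was measured on Illumina bead arrays. The authors deposited an average signal per probe, a linear intensity per the file headers, in 1 table per strain. A second deposited matrix holds a score with mean 8 and SD 2 on every array, which served only as an alternative. The authors' steps before these values, detection calls and genome build are not stated in any source used. No table column was left unmatched.

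The 35 C57BL/6J arrays were quantile normalized and log2 transformed, with no background step, so the changes of dim probes may be understated. Of 46632 probes, 25843 passed a filter that asks for a signal over the array median throughout 1 or more ages with 2 or more arrays. A model with 1 mean per age was fitted in limma 3.58.1 (R 4.3.3, statmod 1.5.0). The contrast E13 minus E12 was tested two-sided with Benjamini-Hochberg adjustment over kept probes, at 0.05. The 31 DBA/2J arrays were treated likewise, and strain differences were tested over all 66 arrays. Probe symbols were matched to RefSeq (26307 by symbol, 7973 by an older symbol, 12352 kept the file's name), and the kept probe with the highest mean stood for each gene.

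The comparison, its members and the 35 gene lists were chosen with earlier results of these data known, so no list is independent evidence. Named were the 12 largest rises and falls among called genes with at least 2-fold change and arrays that do not overlap, the lead genes of each list, and up to 4 called members of each list with the largest change. Other members are named to show how a list divides, after their values were seen. A few genes that the rule names are not reported here. Lists are described by counts, without a set test. Replicate numbers were not taken to pair arrays. Deviations of same-numbered arrays correlated at -0.388, 0.403 and 0.382, which neither shows nor excludes a pairing. On simulated arrays of this comparison over 25843 probes, the test recovered 36.4% of 66 changes of 0.5, 88.1% of 67 changes of 1 and 98.5% of 67 changes of 1.5 on the log2 scale, with 6 false calls. The simulated noise was independent between arrays, with no chip or array series effect, so these rates do not cover such effects. The number of arrays limits the precision. Alternatives changed the normalization, the filter, the arrays in the fit, chip and array series terms, the replicate block, and left out arrays. Promoter and miRNA sequences are from RefSeq (GRCm38.p6). Values were summarised and drawn with Python.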

Additional observations from a re-analysis of the deposited data

Results flagged for a closer look

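The change from E12 to E13 differed between the strains, by a test of the difference itself over 26645 probes (limma, DBA/2J change minus C57BL/6J change, so that a negative value means a smaller rise or a larger fall in DBA/2J), in the following genes. With all arrays, 20 probes passed, and the named genes among them were Esrrb (-1.80, adjusted p = 4.14e-05), the cell cycle inhibitor Cdkn2b (-1.10), the metallothionein Mt1 (-2.03), Alad (-0.89), Rcan3 (-0.87), H2-Q6 (-0.66), Rpe (1.15), Fastkd3 (1.02), Pid1 (0.90) and Tmem260 (0.75).

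Fastkd3 was called in opposite directions, with -0.31 for C57BL/6J and 0.70 for DBA/2J. The C57BL/6J changes behind these ran both ways. Rcan3, a calcineurin regulator, was called in C57BL/6J at 0.86 ± 0.08 but not in DBA/2J (adjusted p = 0.997), and Pid1 was called in both, at 0.68 and 1.60. Cdkn2b, Mt1 and Alad were not called in C57BL/6J (-0.04, 0.35 and -0.07) and were called lower at E13 in DBA/2J (-1.12, -1.68 and -0.98).

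Without DBA/2J E12 replicate 2, 30 probes passed. DBA/2J E13 replicate 1, the other doubtful array, was kept in both settings of this test. The differences were then -1.70 for Esrrb, -1.08 for Cdkn2b, -0.85 for Alad, 1.29 for Rpe, 1.16 for Fastkd3 and 0.78 for Tmem260, and Mt1, Rcan3, H2-Q6 and Pid1 no longer passed. Genes that passed in this setting alone were the kinesin Kif2c (2.68), Zfp367 (1.39), Dusp16 (1.45), Chac1 (-1.47), Cd59a (-1.74), Aim2 (0.88), Ankle1 (0.69), Rpap2 (0.73), 9030607L20Rik (1.23) and LOC100041516 (1.97). In C57BL/6J Kif2c, a mitotic depolymerase, read 9.26, 8.94 and 9.14 at E13, against 10.31, 10.33 and 9.93 at E12.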

How the results depend on the processing

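Of the 101 called genes named by the rule, 50 kept their call in all 22 alternatives and none changed direction in any. Some genes that were not called gained a call in some alternatives, among them Snap25 and Vldlr in 1 each. The array series as a term removed 39 of these calls and the chip as a random block 7. In counts of probes, the array series term gave 733 calls (446 higher, 287 lower), of which 651 were among the 1767, and over all 66 arrays it gave 1014 calls (519 higher, 495 lower), with 94 of at least 2-fold against 163. The direction was the same in 1767 and 1766 of the 1767. Scaling to equal medians gave 559 higher and 1018 lower (35.4% higher, against 51% with quantile normalization), while the median over all genes was -0.0262. Leaving out 1 array at a time gave 1051 to 1733 calls, 570 to 776 higher and 466 to 978 lower, and 146 to 196 of at least 2-fold. Without both arrays that stand apart, chosen after seeing the data, 2057 were called, 308 of them at least 2-fold, and 1148 of the 1767 were kept. The replicate block gave 1483 calls in the 6 arrays and 1716 in the 35, and removed 15 and 5 of the 101 named calls. Deviations of same-numbered arrays correlated at -0.388, 0.403 and 0.382, against -0.512 to 0.431 for arrays of unlike number. With 3 arrays at each age, these values neither show nor exclude a pairing. On the authors' scores, 491 called probes differed by at least 1 score unit, which is no 2-fold change. For DBA/2J E13 minus E12, 777 calls became 1323 without E12 replicate 2 and E13 replicate 1, chosen after seeing the data. The cause was not tested. The dim probes near the array median limit what can be said of genes such as Shh, Fabp7, Barhl1 and Fos.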

Other observations

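Several genes outside the lists, chosen after their values were seen, were also lower at E13. Sall4, a zinc finger factor of pluripotent cells, read 6.62, 7.08 and 6.40 at E13, against 7.89, 7.84 and 7.56 at E12, a change of -1.06 ± 0.12 (adjusted p = 1.17e-06). Igf2bp1, an RNA-binding protein of fetal tissue, read 9.76, 9.47 and 10.08 at E13, against 10.35, 10.51 and 10.99 at E12, a change of -0.85 ± 0.24 (adjusted p = 0.0282), and both of its other kept probes were called in the same direction. Prtg, an adhesion protein of the early neural tube, changed by -0.91 ± 0.18 (adjusted p = 0.00152), Igdcc3 by -0.67 ± 0.14 (adjusted p = 0.00322) and Msi1, an RNA-binding protein of neural progenitors, by -0.73 ± 0.22 (adjusted p = 0.0398), the last with E13 replicate 2 inside the E12 range. Foxm1, a factor of late cell cycle genes, changed by -0.68 ± 0.16 (adjusted p = 0.00626). With the array series as a term the calls of Igf2bp1 and Msi1 were lost, and without E13 replicate 1 or E12 replicate 3 those of Igf2bp1, Msi1 and Foxm1. Lin28a (-0.07 ± 0.09, adjusted p = 0.744) and Lin28b (-0.39 ± 0.18, adjusted p = 0.239) were not called.

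The largest difference of all genes did not pass the test. Pop4, a subunit of RNase P, read 6.98, 11.31 and 6.50 at E13, against 11.37, 11.73 and 11.79 at E12, a change of -3.37 ± 1.10 (adjusted p = 0.0642), so that E13 replicate 2 lay just under the E12 arrays. In DBA/2J the same probe changed by -0.74. Gpm6a, a neuronal membrane protein, read 9.34, 7.63 and 9.11 at E13, against 6.75, 6.87 and 7.84 at E12, a change of 1.54 ± 0.53 (adjusted p = 0.085), and here too E13 replicate 2 was the array nearest to E12. Without that array both Pop4 and Gpm6a were called.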
